A study of Mus musculus with 9 samples.

Results

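A set of 10 genes of vitamin uptake and cobalamin handling were followed through adipogenesis of 3T3-L1 cells with and without lysine. They were taken as a list of gene symbols, Slc19a1, Slc19a2, Slc19a3, Slc46a1, Slc5a6, Slc52a2, Slc52a3, Slc23a2, Tcn2 and Mmachc, and all 10 occurred once among the 54532 genes of the deposited tables. The list holds the carriers of thiamine, folate, biotin with pantothenate, riboflavin and ascorbate, the plasma carrier of cobalamin, and the enzyme that first processes cobalamin in the cell. The rule uses no measured value, but the list was chosen with earlier results of these data known. Counts of these genes beside shares of all genes are therefore a description. All 10 are annotated as protein coding, and their coordinates, on GRCm38, have the same ends in GENCODE vM21.

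Poly A RNA was sequenced from 3T3-L1 cells, a mouse fibroblast line committed to the adipocyte lineage, in 9 libraries, 3 a group. Cells of all groups were first kept confluent for 3 days. Undifferentiated cells were such confluent cells in growth medium with calf serum. Differentiated cells were confluent cells given medium with fetal serum, 800 μM lysine and 4 adipogenic agents, namely 10 μg/mL insulin, 1 μM rosiglitazone, 1 μM dexamethasone and 0.5 mM 3-isobutyl-1-methylxanthine, for 3 days. Lysfree cells received the same differentiation medium for 3 days with 0 μM lysine added, so that only traces from serum remained. The base medium and the serum differed between Undifferentiated and both other groups, and were shared by Differentiated and Lysfree. Time in culture may also have differed, since Differentiated and Lysfree cells had their 3 days in differentiation medium after those at confluence. The labels do not say whether libraries of a group came from separate cultures, so p-values measure the spread between these libraries, which may be technical.

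Mammalian cells cannot make these B vitamins, and the mouse, unlike humans, makes its own ascorbate in the liver, so that a cultured cell depends on carriers in its plasma membrane for both. Inside the cell the vitamins become cofactors: thiamine diphosphate for pyruvate and branched-chain keto acid dehydrogenases, tetrahydrofolate for one-carbon transfer, biotin for carboxylases, pantothenate for coenzyme A, riboflavin for flavoproteins, and cobalamin for methionine synthase and methylmalonyl-CoA mutase. Several of these enzymes feed carbon into fatty acid synthesis, which is high in differentiating adipocytes.

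Library depth was 15880144 to 21806693 counts, and at that depth 3 counts were worth 0.138 to 0.189 CPM (a count divided by the library's total and multiplied by 1000000). The 7 adipocyte markers were Pparg, Cebpa, Fabp4, Adipoq, Plin1, Cidec and Lpl. Their summed level was 298 to 378 FPKM (fragments per kilobase of gene, scaled by library total) in Undifferentiated. It was 6468 to 6781 in Differentiated and 234 to 311 in Lysfree. None of the 7 was under 0.1 FPKM in any group mean. Between Undifferentiated and Lysfree the markers differed in direction. Lpl averaged 146 FPKM in Undifferentiated and 188 in Lysfree, while Adipoq averaged 57.8 and 4.18. Cidec (36.7 and 12), Cebpa (22.9 and 8.23), Pparg (13.7 and 8.47) and Plin1 (9.19 and 4.88) were also lower in Lysfree. Fabp4 overlapped (44.1 and 36.7). Summed over 8 fibroblast markers, the level was 5404 to 5803, 1364 to 1373 and 2001 to 2081 FPKM in the same order of groups. The collagens Col1a1, Col1a2 and Col3a1 were the highest of these markers in Undifferentiated (means of 1887, 1282 and 1365 FPKM). The collagens, Pdgfra, Pdgfrb and Dlk1 were lower in Lysfree than in Undifferentiated. Thy1 was higher (70.4 FPKM in Undifferentiated and 89.1 in Lysfree), and Vim overlapped (602 and 607). Other cell types were near 0 in part of their markers only. Of 5 macrophage markers, summing to 6.28 to 10.7 FPKM over all libraries, Adgre1 was at 0 counts in every library and Ptprc at 0 to 1, while Cd14 averaged 5.54, 4.93 and 5.19 FPKM and Cd68 1.65, 4.12 and 4.4 in Undifferentiated, Differentiated and Lysfree. The 4 endothelial markers summed to at most 0.272 FPKM, and Tek among them averaged 0.156 in Lysfree, against 0.0481 and 0.0165. The epithelial markers summed to 1.18 to 1.72 FPKM in Differentiated, with Krt18 at 0.947 and Epcam at 0, and to at most 0.377 elsewhere. The adipocyte and fibroblast sums, and some of the other marker levels, moved with the comparisons made here, and their part in the results was not tested. Cd14 overlapped between groups in every comparison, and Cd68 overlapped between Differentiated and Lysfree. In bulk RNA, fewer cells of a type and less RNA per cell cannot be told apart. Lysfree 1 stood apart from its group: 522 of 12330 genes lay over 2-fold from the other Lysfree libraries, against 100 for Lysfree 2 and 92 for Lysfree 3, and the mitochondrial share of its counts was 1.6%, against 0.879% and 0.906%. Tests on Lysfree are therefore also given without it.

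Changes were tested across all genes with edgeR's quasi-likelihood test and Benjamini-Hochberg adjustment. A gene passed at an adjusted p under 0.05, and was called when it also changed at least 2-fold (a log2 fold change of 1). The size of an adjusted p varied by many orders of magnitude between fits, so it is read here only against that limit. Errors of log2 fold changes are standard errors (SE), and those of FPKM are SD over 3 libraries. Levels are the deposited FPKM, which are per gene length and can be compared between genes.

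The order of the vitamin genes by level differed between the groups. In Undifferentiated cells, Tcn2 (mean 19.0 FPKM), Slc19a2 (17.6) and Slc23a2 (12.6) stood highest. In Differentiated cells Slc5a6 came first with 31.9 FPKM, followed by Slc19a1 with 19.0 and Slc19a2 with 18.5. In Lysfree cells Slc19a2 came first with 36.8 FPKM, followed by Slc19a1 with 14.5 and Slc23a2 with 14.0. Slc52a3 and Slc19a3 were the lowest in every group, with at most 0.279 FPKM, and rested on 0 to 22 counts a library. All 10 genes entered every test, since the filter asked only for a count above 0 in 1 of the 6 libraries.

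**Figure D1:**
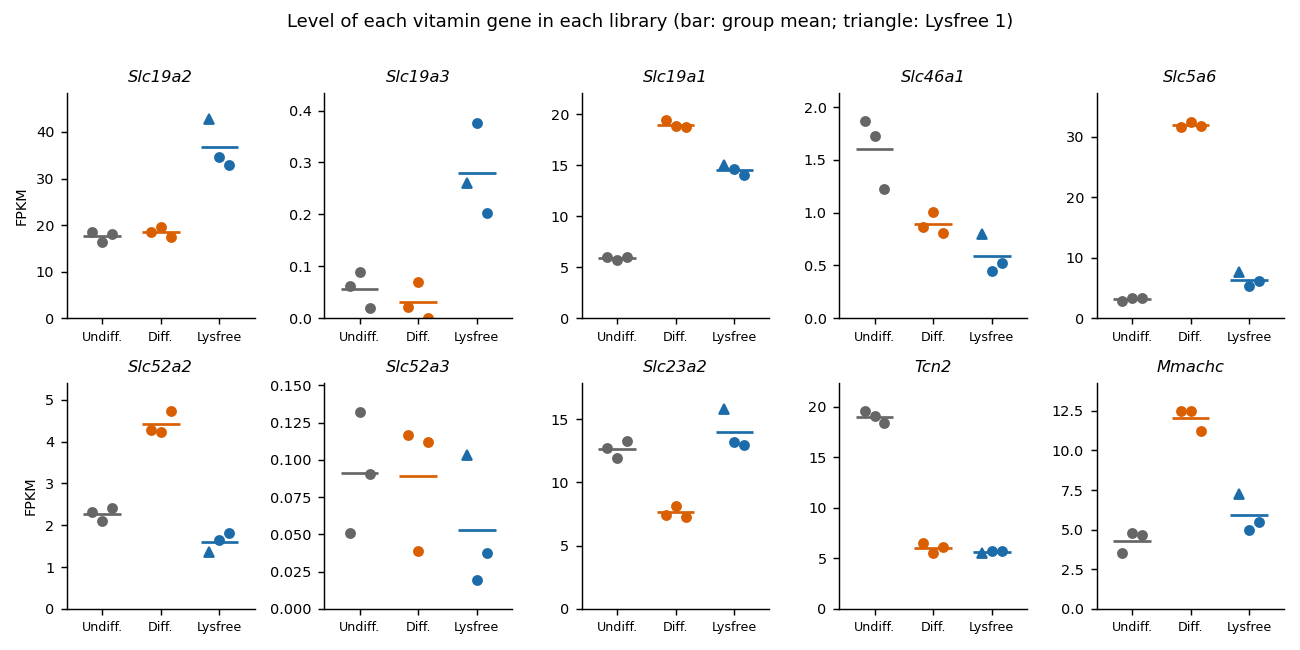
Deposited FPKM (y axis, linear, from 0, a separate scale for each gene) of the 10 vitamin genes in the 9 libraries, by group on the x axis; bars are group means and triangles mark Lysfree 1. Slc5a6 lies at 31.6 to 32.4 FPKM in Differentiated and at or under 7.57 elsewhere, while Slc19a2 lies above 33 FPKM in Lysfree and under 20 elsewhere.

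Between Differentiated and Undifferentiated cells, 7 of the 10 genes passed, 4 higher (Slc5a6, Slc19a1, Mmachc, Slc52a2) and 3 lower (Tcn2, Slc46a1, Slc23a2) in Differentiated. Over all 24402 genes tested, 23% passed higher and 23.2% lower. Only 12943 of these lay above 1 CPM, while of the 10 genes only Slc19a3 and Slc52a3 lay under it. The shares of all genes, here and in the other comparisons, are therefore not those of genes at like levels. Called at 2-fold were 3 higher and 1 lower, where 10.4% and 11.4% of all genes were called, and 7 of the 10 had groups that did not overlap in FPKM, where 50.9% of all genes did so. The genes that rose take up folate, biotin with pantothenate, or riboflavin, or process cobalamin, and those that fell carry folate, ascorbate and cobalamin.

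Between Lysfree and Undifferentiated, 8 passed, 5 higher and 3 lower, beside 18% and 17.1% of 23994 genes. Of these, 4 were called higher and 2 lower, beside 5.52% and 8.76%, and 8 did not overlap, beside 43.5%. Higher were both thiamine carriers, Slc19a1, Slc5a6 and Mmachc, and lower were Tcn2, Slc46a1 and Slc52a2. Between Lysfree and Differentiated, 7 passed, 3 higher and 4 lower, beside 19.7% and 18.8% of 24130 genes. Here 2 were called higher and 2 lower, beside 8.14% and 10.5%, and 8 did not overlap, beside 46.6%. Higher were both thiamine carriers and Slc23a2, and lower were Slc5a6, Slc52a2, Mmachc and Slc19a1. Without Lysfree 1, 7 passed, 4 were called and 9 did not overlap against Undifferentiated, beside 40.6%, 13.9% and 53.4% of 23556 genes. Against Differentiated 8 passed, 4 were called and 9 did not overlap without it, beside 45.2%, 18.9% and 56.4% of 23678 genes.

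The genes did not move as a block. Their median log2 fold change was -0.02 for Differentiated vs Undifferentiated, 0.35 for Lysfree vs Undifferentiated and -0.44 for Lysfree vs Differentiated, and the medians of all genes tested were 0.02, -0.02 and -0.06. The 3 comparisons share libraries, so their values are set side by side below gene by gene and are not independent of each other.

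**Figure D2:**
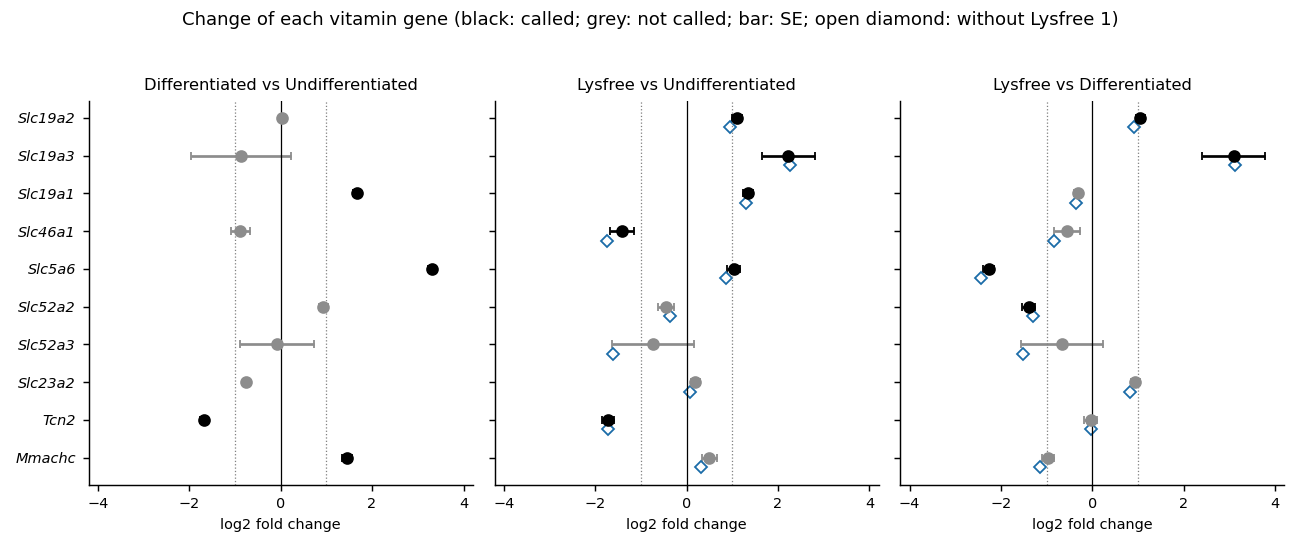
Log2 fold change with its SE (x axis) of each vitamin gene in the 3 comparisons; black points were called, grey points were not, dotted lines mark 2-fold, and open diamonds give the value without Lysfree 1. Slc5a6 lies at 3.30 for Differentiated vs Undifferentiated and -2.27 for Lysfree vs Differentiated, and both thiamine carriers lie above 1 for Lysfree vs Differentiated.

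Both thiamine carriers rose in Lysfree against both other groups, and no other of the 10 genes did. Slc19a2 (ENSMUSG00000040918, chr1:164249046-164265385, plus strand) encodes the high-affinity thiamine carrier THTR1. Its level was 18.5, 16.3 and 18.0 FPKM in the Undifferentiated libraries, 18.5, 19.5 and 17.5 in Differentiated and 42.7, 34.6 and 33.0 in Lysfree. Undifferentiated and Differentiated overlapped, all Lysfree libraries lay above both, and Lysfree 1 was the highest. For Differentiated vs Undifferentiated the log2 fold change was 0.04 ± 0.07 (edgeR adjusted p = 0.59). In Lysfree, Slc19a2 rose by 1.05 ± 0.10 on the log2 scale against Differentiated (edgeR adjusted p = 3.1e-08), and by 1.11 ± 0.11 against Undifferentiated (adjusted p = 3.1e-10). Without Lysfree 1 it still passed, at 0.92 (adjusted p = 3.9e-64) and 0.96 (adjusted p = 1.3e-45), but was under 2-fold in both.

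Slc19a3 (ENSMUSG00000038496, chr1:83012523-83038448, minus strand) encodes the related thiamine carrier THTR2, which is prominent in intestine. It had 4, 6 and 1 counts in the Undifferentiated libraries, 1, 4 and 0 in Differentiated and 14, 22 and 12 in Lysfree. Every Lysfree library held more counts than any of the other 6, while the other groups overlapped. Summed over each group and scaled by total counts, Lysfree (48 counts) was 9.48 times Differentiated (5 counts), with a 95% exact interval of 3.79 to 30.5, and 4.87 times Undifferentiated (11 counts), with an interval of 2.49 to 10.4. These intervals cover counting error only. The fitted log2 fold change was 3.09 ± 0.69 against Differentiated (edgeR adjusted p = 0.00096) and 2.23 ± 0.58 against Undifferentiated (adjusted p = 0.0024), and without Lysfree 1 it was 3.12 and 2.26, called in both. For Differentiated vs Undifferentiated the ratio of summed counts was 0.514 with an interval of 0.14 to 1.6, and no difference was detectable at this depth (adjusted p = 0.52). At 0.279 ± 0.0889 FPKM in Lysfree, Slc19a3 remained far below Slc19a2.

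The sequences around the RefSeq start sites of both genes are shown because these carriers rose in Lysfree against both other groups. Each runs 5′ to 3′ from 250 bases before to 50 bases after the start site (RefSeq, GRCm38.p6), and capitals mark matches to the motifs searched, here the GC box GGGCGG on either strand.
Slc19a2, chr1:164248796-164249095, plus strand: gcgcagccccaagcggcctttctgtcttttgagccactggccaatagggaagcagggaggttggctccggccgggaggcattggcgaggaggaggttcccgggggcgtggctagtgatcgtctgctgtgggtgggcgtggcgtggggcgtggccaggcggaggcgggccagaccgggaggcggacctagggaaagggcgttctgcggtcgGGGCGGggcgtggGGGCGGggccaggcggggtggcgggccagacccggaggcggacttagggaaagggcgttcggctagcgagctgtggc
Slc19a3, chr1:83038399-83038698, minus strand: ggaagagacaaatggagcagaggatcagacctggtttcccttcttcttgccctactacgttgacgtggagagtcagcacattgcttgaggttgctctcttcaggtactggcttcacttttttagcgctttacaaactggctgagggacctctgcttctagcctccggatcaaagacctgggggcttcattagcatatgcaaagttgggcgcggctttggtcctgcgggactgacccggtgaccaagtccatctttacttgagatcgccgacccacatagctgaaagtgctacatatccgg
The Slc19a2 window is 72% G or C and holds 2 GC boxes, and the Slc19a3 window is 52% G or C and holds none. The median of all 32851 such windows of the reference table is 52.7%, with quartiles of 45.7% and 61.7%.

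Most other thiamine genes were higher in Differentiated than in either other group. Of 12 list genes other than the carriers tested in Differentiated vs Undifferentiated, 8 passed higher and 1 lower. In Lysfree vs Differentiated 8 of 11 passed lower and 0 passed higher, and 7 were called lower, the same numbers as without Lysfree 1. In Lysfree vs Undifferentiated 5 of 12 passed higher and 2 lower, again as without Lysfree 1. List counts here and below stand beside the shares of all genes. Those were 23% higher and 23.2% lower in Differentiated vs Undifferentiated. They were 19.7% and 18.8% in Lysfree vs Differentiated (10.5% called lower), and 18% and 17.1% in Lysfree vs Undifferentiated. Without Lysfree 1, 45.2% passed in either direction in Lysfree vs Differentiated, and 40.6% in Lysfree vs Undifferentiated. Transketolase (Tkt), the thiamine enzyme of the pentose phosphate pathway, was at 22.6 ± 0.114 FPKM in Undifferentiated, 71.4 ± 2.15 in Differentiated and 13.8 ± 0.938 in Lysfree, and fell by 2.31 on the log2 scale in Lysfree vs Differentiated (SE 0.09, edgeR adjusted p = 1.5e-14; log2 fold change -2.27 without Lysfree 1). The dehydrogenase subunits Bckdhb, Pdhb and Bckdha, which work on branched-chain keto acids and pyruvate, had log2 fold changes of -2.25, -2.08 and -1.80 in that comparison, and of -2.43, -2.16 and -1.86 without Lysfree 1.

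Against Undifferentiated cells, the folate carriers moved in opposite directions. Slc19a1 (ENSMUSG00000001436, chr10:77032241-77061002, plus strand) encodes the reduced folate carrier, the main route of folate into most cells. It was at 5.98, 5.70 and 6.02 FPKM in Undifferentiated, 19.4, 18.8 and 18.7 in Differentiated and 15, 14.6 and 14.0 in Lysfree. No groups overlapped, with Differentiated highest and Undifferentiated lowest. It rose 3.16-fold in Differentiated vs Undifferentiated (log2 fold change 1.66 ± 0.07, edgeR adjusted p = 1.1e-114) and 2.54-fold in Lysfree vs Undifferentiated (1.35 ± 0.11, adjusted p = 7.1e-12, and 1.30 without Lysfree 1). Lysfree was lower than Differentiated by a smaller step that passed but was not called (-0.32 ± 0.09, adjusted p = 0.0072, and -0.36 without Lysfree 1), and that did not pass without Differentiated 1 (-0.31, adjusted p = 0.054). The gene body overlaps Col18a1 on the opposite strand, with 0 shared exon bases.

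Slc46a1 (ENSMUSG00000020829, chr11:78465697-78472059, plus strand) encodes the proton-coupled folate carrier, which works best at acid pH. Its levels were low, 1.87, 1.73 and 1.22 FPKM in Undifferentiated, 0.860, 1.01 and 0.804 in Differentiated and 0.794, 0.443 and 0.519 in Lysfree. All Undifferentiated libraries lay above the other 6, and Differentiated lay just above Lysfree, where Lysfree 1 at 0.794 came close to Differentiated 3 at 0.804. Against Undifferentiated it fell by 0.88 on the log2 scale in Differentiated (SE 0.20, edgeR adjusted p = 4.3e-05), under 2-fold, and by 1.42 in Lysfree (SE 0.26, adjusted p = 3e-05), which was called. In Lysfree vs Differentiated the value of -0.55 ± 0.28 did not pass (adjusted p = 0.13), and without Lysfree 1 it was -0.85 and passed (adjusted p = 0.0073). With 26 to 123 counts a library, this gene is measured less precisely than the reduced folate carrier.

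Of 16 other folate genes, 7 passed higher and 7 lower in Differentiated vs Undifferentiated, and 4 passed higher and 4 lower in Lysfree vs Differentiated (6 and 5 without Lysfree 1). Aldh1l2, the mitochondrial enzyme that oxidises formyl-tetrahydrofolate, was at 38.1 ± 3.41, 32 ± 1.54 and 87.1 ± 3.86 FPKM in Undifferentiated, Differentiated and Lysfree, and rose by 1.51 ± 0.08 in Lysfree vs Differentiated (edgeR adjusted p = 3.7e-12; 1.46 without Lysfree 1). Shmt1, the cytosolic serine hydroxymethyltransferase, fell by 1.47 in that comparison (log2 fold change -1.52 without Lysfree 1). Ggh, which trims the glutamate tail that holds folate in the cell, fell by 1.54 in Differentiated vs Undifferentiated.

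Slc5a6 had the largest fold change between Differentiated and Undifferentiated of the 10 genes. The gene (ENSMUSG00000006641, chr5:31036036-31048924, minus strand) encodes the sodium-dependent multivitamin carrier, which brings in biotin, pantothenate and lipoate. Levels were 2.87, 3.42 and 3.30 FPKM in Undifferentiated, 31.6, 32.4 and 31.8 in Differentiated and 7.57, 5.31 and 6.11 in Lysfree. The 3 groups did not overlap, with Lysfree between the others and closer to Undifferentiated. In Differentiated it rose 9.82-fold (log2 fold change 3.30 ± 0.08; the edgeR adjusted p was too small for the software to hold and is written as 0), which placed it at percentile 98.4 of log2 fold change among genes above 1 CPM. In Lysfree vs Differentiated it fell by 2.27 (SE 0.12, adjusted p = 1.1e-12), 4.83-fold, with a log2 fold change of -2.44 without Lysfree 1. Lysfree lay above Undifferentiated by 1.03 ± 0.15 (adjusted p = 5.8e-07), at the edge of the 2-fold limit, and by 0.86 (adjusted p = 4.2e-13) without Lysfree 1, which is no longer called. Of the exon bases of Slc5a6, 396 (9.92%) are shared with Atraid on the opposite strand, at mean levels of 33.8, 19.1 and 24.8 FPKM in Undifferentiated, Differentiated and Lysfree. The strand setting of the counting was not given in the sources used here, so reads of that stretch could belong to either gene; Atraid was lower in Differentiated, where Slc5a6 was highest.

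Both RefSeq start windows of Slc5a6 are printed as those of the carrier with the largest difference in FPKM between Lysfree and Differentiated (GRCm38.p6, minus strand, 5′ to 3′, GC boxes on either strand in capitals). Each also overlaps Atraid.
Slc5a6, chr5:31048513-31048812: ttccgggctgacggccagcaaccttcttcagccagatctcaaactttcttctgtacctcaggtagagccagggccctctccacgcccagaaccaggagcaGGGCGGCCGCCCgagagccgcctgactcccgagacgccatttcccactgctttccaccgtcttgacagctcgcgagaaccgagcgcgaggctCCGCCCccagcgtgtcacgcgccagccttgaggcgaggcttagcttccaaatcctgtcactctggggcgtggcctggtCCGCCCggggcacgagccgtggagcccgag
Slc5a6, chr5:31048030-31048329: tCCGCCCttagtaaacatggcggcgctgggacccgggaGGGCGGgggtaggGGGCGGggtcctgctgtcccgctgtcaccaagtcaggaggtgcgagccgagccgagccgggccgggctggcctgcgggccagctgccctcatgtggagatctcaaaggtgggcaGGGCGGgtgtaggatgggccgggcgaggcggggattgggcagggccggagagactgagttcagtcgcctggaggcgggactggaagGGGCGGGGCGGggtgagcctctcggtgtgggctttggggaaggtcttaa
They are 66% and 70.3% G or C, with 4 and 6 GC boxes. Across the 10 windows of the 7 members in the table, a GC box occurred in 7 windows of 6 genes, and in 35.7% of all 32851 windows. The 10 windows hold 50.7% to 78.3% G or C.

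The genes of biotin recycling and the carboxylases were higher in Differentiated than in either other group. All 9 biotin genes other than Slc5a6 passed higher in Differentiated vs Undifferentiated, and 8 of 9 passed lower in Lysfree vs Differentiated (9 of 9 without Lysfree 1), with 5 called lower either way. Pyruvate carboxylase (Pcx), which supplies oxaloacetate for citrate and so for fatty acid synthesis, was at 32.4 ± 2.92, 558 ± 8.39 and 17.8 ± 1.53 FPKM in Undifferentiated, Differentiated and Lysfree. It rose by 4.08 ± 0.05 on the log2 scale in Differentiated and fell by 4.91 (SE 0.09, edgeR adjusted p = 1.9e-19; log2 fold change -4.93 without Lysfree 1) in Lysfree vs Differentiated. Pccb and Mccc2, subunits of propionyl-CoA and methylcrotonyl-CoA carboxylases, and Btd, which frees biotin for reuse, fell by 1.95, 1.60 and 1.73 in Lysfree vs Differentiated (log2 fold changes of -1.85, -1.54 and -1.73 without Lysfree 1). Of 8 pantothenate and coenzyme A genes other than Slc5a6, 6 passed higher and 1 lower in Differentiated. In Lysfree vs Differentiated 7 of 9 passed lower, among them the pantothenate kinases Pank1 and Pank3 (by 2.11 and 1.51). Without Lysfree 1 their log2 fold changes were -1.98 and -1.84, and Pank3 varied within Lysfree (41.6 ± 14.1 FPKM).

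**Figure D3:**
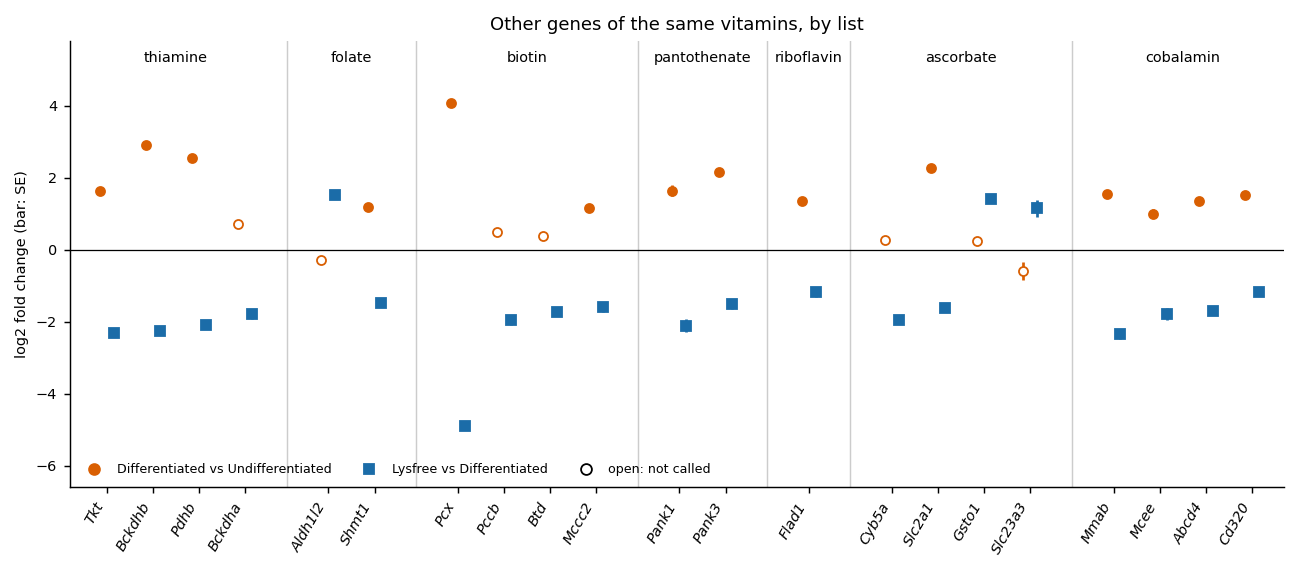
Log2 fold change with SE (y axis) of genes other than the 10, up to 4 for each vitamin and all called in Lysfree vs Differentiated, for Differentiated vs Undifferentiated (orange circles) and Lysfree vs Differentiated (blue squares); filled symbols were called. Pcx spans from 4.08 to -4.91, while Aldh1l2 (1.51) and Gsto1 (1.40) lie above 0 for Lysfree vs Differentiated.

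Of the riboflavin carriers, Slc52a2 was the one at over 1 FPKM in all libraries. The gene (ENSMUSG00000022560, chr15:76538832-76544608, plus strand) was at 2.31, 2.09 and 2.42 FPKM in Undifferentiated, 4.27, 4.23 and 4.74 in Differentiated and 1.36, 1.64 and 1.82 in Lysfree. The groups did not overlap, Differentiated being the highest and Lysfree the lowest. It rose by 0.93 ± 0.10 in Differentiated vs Undifferentiated (edgeR adjusted p = 5.6e-19), under 2-fold. It fell by 1.39 in Lysfree vs Differentiated (SE 0.14, adjusted p = 6e-08, and by 1.30 without Lysfree 1), which was called. Against Undifferentiated the fall of 0.45 in Lysfree (SE 0.17, adjusted p = 0.031; 0.37 and adjusted p = 0.021 without Lysfree 1) passed and was not called. It did not pass without Undifferentiated 1 (adjusted p = 0.084), Undifferentiated 3 (0.14) or Lysfree 2 (0.052). Its merged exons cover 5499 bases, nearly the whole gene body, so reads from retained introns count toward it.

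Slc52a3 (ENSMUSG00000027463, chr2:151996511-152009258, plus strand), the riboflavin carrier known mostly from intestine, had 3, 8 and 4 counts in Undifferentiated, 5, 2 and 5 in Differentiated and 5, 1 and 2 in Lysfree. The groups overlapped in every comparison. The ratio of summed counts was 0.905 (95% exact interval 0.387 to 2.07) for Differentiated vs Undifferentiated, 0.595 (0.219 to 1.5) for Lysfree vs Undifferentiated and 0.658 (0.233 to 1.75) for Lysfree vs Differentiated. No difference was detectable at this depth. Of 5 other riboflavin genes, 1 passed higher and 2 lower in Differentiated vs Undifferentiated, and 2 passed higher and 3 lower in Lysfree vs Differentiated, as without Lysfree 1. Flad1, the FAD synthase, rose by 1.34 ± 0.09 in Differentiated and fell by 1.18 in Lysfree vs Differentiated (SE 0.14, edgeR adjusted p = 3.1e-07; 1.04 without Lysfree 1).

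Slc23a2 (ENSMUSG00000027340, chr2:132052496-132145108, minus strand) encodes SVCT2, the sodium-dependent ascorbate carrier of most tissues. Its level was 12.7, 11.9 and 13.3 FPKM in Undifferentiated, 7.44, 8.16 and 7.27 in Differentiated and 15.8, 13.2 and 13.0 in Lysfree. Differentiated lay below all 6 other libraries, and Lysfree overlapped Undifferentiated. It fell by 0.75 in Differentiated vs Undifferentiated (SE 0.06, edgeR adjusted p = 3.8e-31) and rose by 0.94 ± 0.10 in Lysfree vs Differentiated (adjusted p = 1.2e-07; 0.83 without Lysfree 1), both under 2-fold. Lysfree vs Undifferentiated gave 0.19 ± 0.10 (adjusted p = 0.16; 0.08 without Lysfree 1) and did not pass. Of the other ascorbate genes, 4 of 10 passed higher and 2 lower in Differentiated vs Undifferentiated, and 2 passed higher and 2 lower in Lysfree vs Differentiated, as without Lysfree 1. Gsto1, which reduces dehydroascorbate, rose by 1.40 ± 0.09 in Lysfree vs Differentiated, from 65.4 ± 2.83 to 165 ± 11 FPKM (edgeR adjusted p = 4.2e-11; 1.44 without Lysfree 1). Slc2a1, a glucose carrier that also takes up dehydroascorbate, and Cyb5a, an electron donor in ascorbate recycling, fell by 1.62 and 1.96 (log2 fold changes of -1.69 and -1.88 without Lysfree 1). Slc23a3, a family member not known as an ascorbate carrier, rose by 1.15 ± 0.24, from 0.885 ± 0.092 to 1.88 ± 0.382 FPKM (1.28 without Lysfree 1).

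Cobalamin is carried in plasma by transcobalamin, taken up through the receptor CD320, released from the lysosome by LMBRD1 and ABCD4, and then stripped of its upper ligand by MMACHC. Tcn2 (ENSMUSG00000020432, chr11:3917192-3932159, minus strand), which encodes transcobalamin, was at 19.6, 19.1 and 18.4 FPKM in Undifferentiated, 6.53, 5.52 and 6.14 in Differentiated and 5.51, 5.73 and 5.68 in Lysfree. All Undifferentiated libraries were above the other 6, and Differentiated and Lysfree overlapped. It fell by 1.68 in Differentiated (SE 0.09, edgeR adjusted p = 2.7e-72) and by 1.71 in Lysfree (SE 0.13, adjusted p = 7.2e-13; 1.72 without Lysfree 1), 3.21-fold and 3.27-fold. Lysfree vs Differentiated gave -0.04 ± 0.14 (adjusted p = 0.85; -0.04 without Lysfree 1), a value whose sign turns with library sizes alone as the scaling. Tcn2 was lower in both differentiation media, with and without added lysine, than in growth medium.

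Mmachc (ENSMUSG00000028690, chr4:116702279-116708406, minus strand) was at 3.50, 4.80 and 4.63 FPKM in Undifferentiated, 12.5, 12.5 and 11.2 in Differentiated and 7.22, 5 and 5.51 in Lysfree. No groups overlapped, although Lysfree 2 at 5 lay close to Undifferentiated 2 at 4.80. It rose 2.75-fold in Differentiated (log2 fold change 1.46 ± 0.11, edgeR adjusted p = 1.7e-42). In Lysfree vs Differentiated it fell by 0.97 (SE 0.14, adjusted p = 8.3e-06), just under 2-fold, and by 1.15 (adjusted p = 1.7e-27) without Lysfree 1, which is called. Lysfree was above Undifferentiated by 0.50 ± 0.17 (adjusted p = 0.02), and this did not pass without Lysfree 1 (0.31, adjusted p = 0.065), Undifferentiated 1 (0.37, adjusted p = 0.16) or Undifferentiated 3 (0.55, adjusted p = 0.067), nor with DESeq2 (adjusted p = 0.052).

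The start window of Mmachc is given because regulation of this promoter by a complex of HCFC1, THAP11 and ZNF143 is known, and the motif list therefore held the ZNF143 core ACTACAA (GRCm38.p6, 5′ to 3′, capitals mark a GC box and an antioxidant element core, TGACNNNGC, on the reverse strand).
Mmachc, chr4:116708336-116708635, minus strand: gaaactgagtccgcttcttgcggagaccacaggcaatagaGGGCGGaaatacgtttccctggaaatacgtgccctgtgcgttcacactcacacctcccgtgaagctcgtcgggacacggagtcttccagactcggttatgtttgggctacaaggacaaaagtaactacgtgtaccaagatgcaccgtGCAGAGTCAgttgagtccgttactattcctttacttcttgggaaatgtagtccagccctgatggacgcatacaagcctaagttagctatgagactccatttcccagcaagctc
The window holds no exact ACTACAA on either strand, and it also overlaps Ccdc163. It does hold ACTACAT on the reverse strand (printed as atgtagt), which differs from the searched core only in its last letter. Variants of the core were not searched, so this result does not show that the window lacks a site of the complex. Among the members' windows ACTACAA occurred in 1, of Slc19a1, against 3.24% of all windows, and TGACNNNGC in 2, of Slc19a1 and Mmachc, against 12.4%. The C/EBP-ATF element TGATGNAA, the C/EBP dimer motif TTGCNNAA, the nuclear receptor core AGGTCA and the E-box CACGTG were searched on both strands and occurred in 0 of the 10 windows. In all windows their shares were 3.97%, 10.8%, 16.3% and 7.15%; motifs could overlap each other, and a match or its absence describes only the letters of a window. Of the complex, Hcfc1, Thap11 and Zfp143 changed by 0.33, 0.35 and -0.44 on the log2 scale in Lysfree vs Differentiated (edgeR adjusted p = 0.0036, 0.013 and 0.011; 0.34, 0.40 and -0.42 without Lysfree 1), and 0 of the 3 were called in any comparison.

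Most other genes on the cobalamin route were higher in Differentiated than in Undifferentiated. Of 14, 9 passed higher and 1 lower in Differentiated vs Undifferentiated, and 7 passed lower and 5 higher in Lysfree vs Differentiated, as without Lysfree 1. The receptor gene Cd320 was at 4.55 ± 0.236, 13.3 ± 2.10 and 5.65 ± 0.466 FPKM in Undifferentiated, Differentiated and Lysfree. It rose by 1.52 ± 0.10 in Differentiated (edgeR adjusted p = 2.4e-54) and fell by 1.17 in Lysfree vs Differentiated (SE 0.13, adjusted p = 2.5e-07; log2 fold change -1.26 without Lysfree 1). Abcd4 fell by 1.70 in that comparison, and Mmab and Mcee, which make adenosylcobalamin and act beside the mutase in propionate breakdown, fell by 2.34 and 1.78. Lmbrd1, of the same release step as Abcd4 and named after the values were seen, went the other way. It rose by 0.75 in Lysfree vs Differentiated (edgeR adjusted p = 3.5e-05; 0.54 without Lysfree 1) and fell by 0.38 in Differentiated vs Undifferentiated. Without Lysfree 1 the log2 fold changes of Abcd4, Mmab and Mcee were -1.69, -2.21 and -1.65. On the methionine synthase side, named after the values were seen, Mtrr, which reactivates methionine synthase (Mtr), rose by 0.94 and Mtr by 0.38 in Lysfree vs Differentiated (edgeR adjusted p = 2.7e-07 and 0.0071; 0.89 and 0.32 without Lysfree 1). Mut, the methylmalonyl-CoA mutase itself, also named afterwards, rose by 1.54 in Differentiated and by 1.28 in Lysfree against Undifferentiated (1.22 without Lysfree 1).

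**Figure D4:**
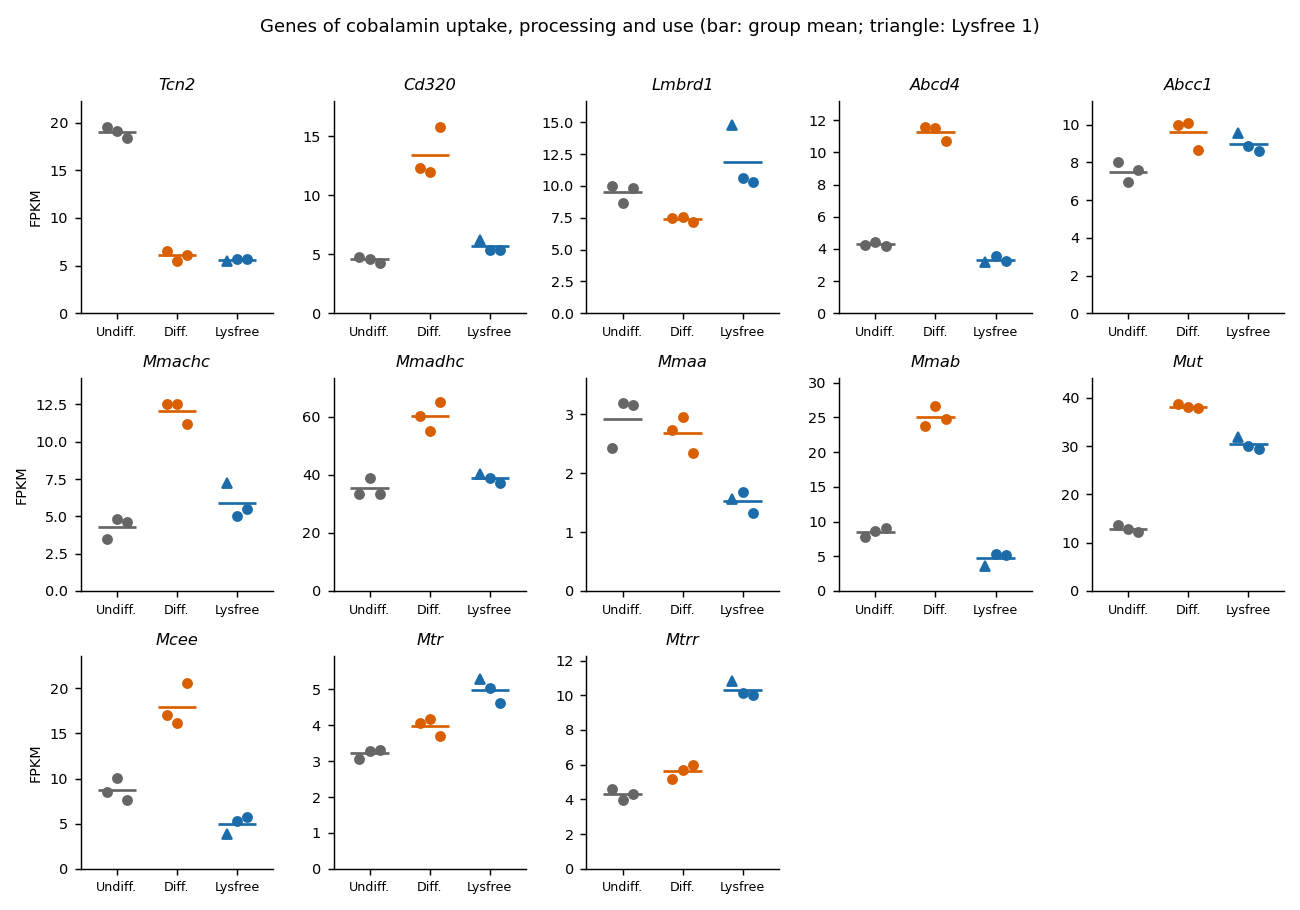
Deposited FPKM (y axis, linear, from 0, a separate scale for each gene) of the 13 cobalamin genes with a mean of at least 1 FPKM in a group, in the 9 libraries; bars are group means and triangles mark Lysfree 1. Tcn2 is lower in both other groups than in Undifferentiated, Cd320, Abcd4, Mmachc and Mmab peak in Differentiated, and Mtrr is highest in Lysfree at 10.0 to 10.8 FPKM.

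Among 12700 genes with a mean of at least 1 CPM, those nearest to each member called in Lysfree vs Differentiated were sought by Euclidean distance between log2(FPKM + 0.1) profiles over the 9 libraries, centred on their own means. Samd8 (distance 0.159) and Rock2 (0.163) lay nearest to Slc19a2, where the median gene was at 1.93. Tmcc3 (0.173) and Idh3a (0.283), a subunit of isocitrate dehydrogenase, lay nearest to Slc5a6, against a median of 4.26. For Slc52a2 the nearest were Ccnl2 (0.274) and Nelfcd (0.29), against 2.12. Slc19a3, with its few counts, had no gene as near: 9130008F23Rik lay at 0.75 and Prkx at 0.8, against a median of 2.52. Over the 8 libraries without Lysfree 1, Tmcc3 and Idh3a remained the nearest to Slc5a6, while Eif3a came first for Slc19a2, Inpp4b for Slc19a3 and Tmem243 for Slc52a2, at 0.148, 0.717 and 0.202. All these profiles share the same libraries, and the distances are a description.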

How the data were processed

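Gene expression of 3T3-L1 cells was read from 9 poly A libraries, 3 a group, assigned by their titles. The authors mapped trimmed paired reads to mm10 with HISAT2 2.0.5, and the deposited gene counts are not normalized; the submitters' processing notes also name featureCounts 1.5.0-p3. The authors also deposited FPKM, which here equalled count over gene length and library total times 1 constant per library (0.932 to 1.04). The annotation and strand setting were not given in the sources used here. Counts were tested with edgeR 4.0.16 (TMM, glmQLFit, glmQLFTest, R 4.3.3), separately in the 6 libraries of each comparison, and checked on simulated counts. With 3 against 3, an exact permutation test cannot give a p below 0.1. The 10 genes, the gene lists and the motifs were chosen with earlier results of these data known. Of each list, up to 4 called genes of at least 1 FPKM with the largest change in Lysfree vs Differentiated are named, apart from 1 that is not reported here. Alternatives were DESeq2 1.42.0, limma 3.58.1, other scalings, filters and fits, and leaving out each library. Start windows came from RefSeq (GRCm38.p6); 7 of the 10 genes matched, Slc52a2, Slc52a3 and Tcn2 being the others.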

Additional observations from a re-analysis of the deposited data

How the results depend on the processing

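Across the alternatives, 394 of 416 recomputed log2 fold changes of the 10 genes kept their direction and their side of the 2-fold call, 12 lost the call, 5 gained it and 5 turned sign. The sign turned only in values near 0 or of few counts: Tcn2 in Lysfree vs Differentiated at 0.04 with library sizes alone and between -0.10 and 0.02 leaving out 1 library each, Slc19a2 in Differentiated vs Undifferentiated between -0.0035 and 0.08, and Slc52a3 there between -0.39 and 0.31. Without a fold threshold, 11260, 8428 and 9280 genes passed in the comparisons of Differentiated and of Lysfree with Undifferentiated and of Lysfree with Differentiated, in place of 5329, 3426 and 4507 called, and of the 10 genes 7 passed in the first and 7 in the last. Limma on log2(FPKM + 1), which shrinks low levels, called 2726, 1474 and 2198 genes, with 3 of the 10 in Lysfree vs Undifferentiated and 2 in Lysfree vs Differentiated. With the replicate number as a replicate block, 4837, 3179 and 4173 genes and 4, 6 and 4 of the 10 were called; correlations of same-numbered libraries lay between -0.08 and 0.12, so the numbers were not taken to pair libraries. Slc5a6 in Lysfree vs Undifferentiated sat at the 2-fold limit, with 1.00 under edgeR's expression filter, 0.96 without Undifferentiated 1, 0.80 and 0.95 with limma. Slc46a1 in Differentiated vs Undifferentiated reached -1.02 without Undifferentiated 3, and Mmachc in Lysfree vs Differentiated reached -1.02 without Differentiated 3; the cause was not tested. Scaling by library sizes alone moved the median gene above 1 CPM of Lysfree vs Differentiated from 0.04 to 0.12, and brought Slc23a2 there to 1.01. In Lysfree vs Undifferentiated, Slc52a2 did not pass in either limma fit (adjusted p = 0.064 and 0.058), and Mmachc did not pass with edgeR's expression filter (0.059) or limma (0.14 and 0.12). Adjusted p-values moved far more than fold changes. In Differentiated vs Undifferentiated, Slc5a6 went from 0 as written to 5.5e-13 with edgeR's expression filter and 2.3e-07 with limma on log2(FPKM + 0.1). Slc19a1 there went from 1.1e-114 to 3.3e-11 and 3.7e-07, and both genes stayed called. Depth limited Slc19a3 and Slc52a3. The profile distances, list counts and shares of all genes without Lysfree 1 were added after seeing the data.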
